A study of Mus musculus with 147 samples.

Results

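Male germ cells of the mouse testis at postnatal day (PND) 2 were compared with those of the day of birth, PND0. A germ cell was a wild-type cell with more than 2000 genes, 10000 to 1000000 transcripts, at least 150 CPM (UMIs of a gene per 1000000 UMIs) of *Ddx4*, which encodes a germ cell RNA helicase, and under 100 CPM each of *Sox9* of Sertoli cells and *Nr2f2* of interstitial cells. This rule kept 519 cells, 312 of PND0 and 207 of PND2, among 675 cells of both days that passed the filter on genes and transcripts and 13032 cells in the whole series. The mice were the sons of C57BL/6 females and of males that carry 2 reporter transgenes, *Blimp1*-mVenus and *Stella*-ECFP, and no gene was deleted and no treatment given at either day. Testes were digested and cells that looked like germ cells were picked by hand, so that the pools hold what was recognised under the microscope. Transcripts were read at their 3′ ends by single-cell STRT-seq, in which each molecule is counted once by its unique molecular identifier (UMI).

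Prospermatogonia, also called gonocytes, are the male germ cells between the fetal arrest of mitosis and the first spermatogonia. They stop dividing in the fetus, establish DNA methylation while arrested, and divide again shortly after birth while they move to the basement membrane of the seminiferous cord. The Sertoli cells around them supply GDNF, a growth factor that binds the receptor pair GFRA1 and RET on germ cells and maintains spermatogonial stem cells. Entry into the cell cycle proceeds from loading of the MCM helicase at replication origins and release of E2F factors from retinoblastoma proteins to DNA synthesis, and then to mitosis under CDK1 and its cyclins.

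The cells of each day came from 2 biological replicates. UMIs were summed over the germ cells of a day and replicate, and such a sum is called a pool. Of the 312 PND0 cells 173 were of replicate 2, and the PND2 pools held 26 and 181 cells. Values are always given in the order replicate 1, replicate 2. They summed to between 12140402 and 50777876 UMIs, and the median cell of a pool held between 237765 and 423211 UMIs. The 8 libraries shared all 96 cell barcodes, and no barcode was used more than once within a library. Each replicate came from a single testis or animal by the study's sampling list, and p-values measure the spread between these pools. In a sum over cells, fewer cells with a transcript and less of it per cell cannot be told apart.

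The germ cell identity of the pools was checked first. *Ddx4*, which chose the cells, was at 364 and 415 CPM in the PND0 pools and at 354 and 413 CPM in the PND2 pools. Only 4 germ cells had 150 to 200 CPM of *Ddx4*, and 2 cells that met every other condition had 75 to 150 CPM. *Dazl*, a germ cell RNA-binding protein that the rule did not use, was at 666 and 665 CPM at PND0 and at 559 and 696 CPM at PND2 (log2 fold change 0.13, adjusted p = 0.864). None of 8 germ cell markers tested passed, and their log2 fold changes ran from -0.47 for the RNA helicase *Ddx25*, at 350 and 465 CPM and then 263 and 254 CPM, to 0.85 for *Taf7l*, a subunit of a transcription factor, at 245 and 146.2 CPM and then 296 and 313 CPM. For both of these genes the pools of the days lay apart.

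PND2 replicate 1 stood apart from the other 3 pools. Only 26 of its 110 cells past the filter were germ cells by the rule (23.6%), against 74.7%, 91.1% and 95.8% in PND0 replicate 1, PND0 replicate 2 and PND2 replicate 2. Its germ cells also carried the most RNA of Sertoli, interstitial and Leydig marker genes, while endothelial and macrophage markers were highest in PND0 replicate 2. The 14 Sertoli cell markers summed to 408 and 315 CPM at PND0 and to 798 and 142.1 CPM at PND2. The 11 interstitial and peritubular markers summed to 311 and 331 CPM at PND0 and to 529 and 103.9 CPM at PND2, and the 7 Leydig cell markers to 86.6 and 104.3 CPM and to 241 and 10.9 CPM. Endothelial markers were at 196 and 259 CPM and at 188 and 179 CPM, and macrophage and blood markers at 244 and 519 CPM and at 331 and 141.9 CPM. No marker was at 0 in all 4 pools, while *Insl3* of Leydig cells and *C1qa* of macrophages were at 0 in PND2 replicate 2. The somatic sums thus set the PND2 pools apart from each other, and what they contribute to the differences described below was not tested. Of 50 somatic markers tested one by one, *Cd68* was higher at PND2, and *Myh11*, *Acta2*, *Hbb-bs* and *Hbb-bt* were lower.

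Across 22524 genes tested with edgeR's quasi-likelihood test at a false discovery rate of 0.05, 1345 genes rose from PND0 to PND2 (5.97%) and 1728 fell (7.67%). These shares are the background for every count given for a gene group. The groups were chosen with earlier results of these data known, so such counts are a description. Which direction held more calls depended on the pools used: without PND0 replicate 1 there were 2060 higher and 1069 lower, without PND0 replicate 2 there were 471 and 446, and with all pools of PND0 to PND7 in 1 fit 2254 and 698. The median gene had a log2 fold change of -0.12. Both PND2 pools lay above both PND0 pools for 20.3% of genes and below both for 41.4%, and a lack of overlap between 2 and 2 pools is therefore common here. Fold changes and their standard errors (SE) come from this test, which rescales the pools, while CPM refer to the pool's own sum.

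Genes of DNA replication were higher at PND2. Of the 43 genes that the study assigns to G1/S, 24 rose and none fell, with a median log2 fold change of 1.18. The largest rise was that of *Rrm2*, the regulatory subunit of ribonucleotide reductase, at 16.9 and 7.25 CPM at PND0 and 81.5 and 130 CPM at PND2. Both PND2 pools were several times above both PND0 pools, a 10.4-fold rise (log2 fold change 3.38, SE 0.43, adjusted p = 7.14e-04). *Uhrf1*, which recruits the maintenance methyltransferase to newly replicated DNA, was at 45.3 and 15.3 CPM and then at 154 and 228 CPM. It rose 7.5-fold (adjusted p = 0.00152), although the PND0 pools differed from each other by more than the PND2 pools did in ratio.

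Replication licensing moved with this group: 17 of 35 licensing and fork genes rose, none fell, and the median log2 fold change was 1.00. The lists overlap, with 15 genes in both, and of the 20 licensing and fork genes outside the G1/S list 7 rose, at a median of 0.92. *Mcm5*, a subunit of the MCM helicase, was at 75.9 and 65.9 CPM at PND0 and at 220 and 239 CPM at PND2 (log2 fold change 1.90, SE 0.31, adjusted p = 0.00219). Its pools of a day lay close together and the days were far apart. *Mcm2* of the same helicase showed nearly the same levels, 66.5 and 60.8 CPM and then 197 and 223 CPM (log2 fold change 1.93, adjusted p = 0.00193), and *Mcm3* rose less (1.09, adjusted p = 0.0300). The other subunits did not pass the test, with log2 fold changes of 0.88 for *Mcm4*, 0.61 for *Mcm6* and 0.67 for *Mcm7* and adjusted p of 0.0570, 0.205 and 0.124. All of these 3 values were above the median of all genes.

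Several loading and firing factors rose and others did not pass. *Orc1*, *Cdt1*, *Gins2* and *Cdc45* were called higher, as were the 3 genes given next. *Cdc6*, which loads the helicase, was at 14.3 and 6.24 CPM and then at 30.4 and 45.9 CPM (log2 fold change 2.14, adjusted p = 0.00778). *Gins1*, a part of the active helicase complex, went from 31.9 and 36.3 CPM to 104.3 and 100.8 CPM (1.77, adjusted p = 0.00275), and *Mcm10*, needed for its activation, from 20.03 and 18.6 CPM to 60.7 and 64.3 CPM (1.90, adjusted p = 0.00275). For these 3 genes no PND0 pool reached a PND2 pool. *Orc6* of the origin recognition complex, at 112.8 and 104.2 CPM and then 172 and 183 CPM, did not pass (0.91, adjusted p = 0.0523), nor did *Gins3* and *Gins4*, partners of *Gins1*, with log2 fold changes of 0.92 and 0.39 (adjusted p = 0.132 and 0.440). Among genes of nucleotide synthesis, higher levels were found for *Tk1*, thymidine kinase, at 42.4 and 18.1 CPM and then at 107.8 and 152 CPM (2.34, adjusted p = 0.00274), and for *Tyms*, thymidylate synthase, with a log2 fold change of 1.82. *Pcna*, the sliding clamp, was at 227 and 204 CPM and then at 288 and 412 CPM, and its log2 fold change of 0.93 did not pass (adjusted p = 0.0905). Without PND2 replicate 1 it did (1.32, adjusted p = 0.00169).

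The E2F and retinoblastoma genes were led by *E2f8*, a repressor that is itself an E2F target, with 1.71 and 1.63 CPM and then 8.98 and 6.84 CPM (2.41, adjusted p = 0.0447). Of their 15 genes, 6 rose, namely *E2f8*, *Rbl1*, *E2f3*, *E2f4*, *E2f1* and *Tfdp1*, none fell, and the median log2 fold change was 0.68. *Rb1*, the retinoblastoma protein itself, was at 33.7 and 18.2 CPM and then at 35.01 and 26.1 CPM, so that its pools overlapped (0.41, adjusted p = 0.475).

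Mitotic genes also rose, but less evenly between the PND2 pools. Of the study's G2/M genes, 18 of 53 rose, none fell, and the median log2 fold change was 0.80, where 1 further entry of the study's list was left out because it names no gene. *Mki67*, a coat protein of mitotic chromosomes used as a marker of cycling cells, was at 18.3 and 14.5 CPM at PND0 and at 63.5 and 146.2 CPM at PND2. PND2 replicate 2 held more than PND2 replicate 1, and both were above PND0, a 7.69-fold rise (log2 fold change 2.94, SE 0.43, adjusted p = 0.00126). *Ccna2*, cyclin A2, was at 35.5 and 52.5 CPM and then at 126.6 and 256 CPM (2.36, adjusted p = 0.00285). *Cdk1*, the mitotic kinase, was at 53.8 and 21.2 CPM and then at 128.2 and 234 CPM (2.54, adjusted p = 0.00289). *Plk1*, a kinase of mitotic entry and spindle assembly, was at 20.6 and 9.41 CPM and then at 51.2 and 135.9 CPM (2.93, adjusted p = 0.00275). In each of these 3 genes PND2 replicate 2 lay highest and no pools of the 2 days overlapped.

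The same order of the PND2 pools held for most of the group. Relative to PND2 replicate 1, replicate 2 had more of 46 of the 53 G2/M genes, at a median log2 ratio of 0.61, while the median over all genes was -0.09. For the G1/S genes this median ratio was 0.23. *Aurkb* and *Birc5*, both of the chromosomal passenger complex, rose with log2 fold changes of 2.34 and 2.62 (adjusted p = 0.00141 and 9.96e-04), from 25.8 and 25.3 CPM to 85.5 and 135.3 CPM and from 45.5 and 28.5 CPM to 149 and 235 CPM. *Foxm1*, a transcription factor of mitotic genes, was at 5.54 and 5.79 CPM and then at 23.1 and 30.8 CPM (2.47, adjusted p = 0.00341). These 3 genes were called whichever pool was left out.

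The B cyclins did not pass the test. *Ccnb1* was at 114.4 and 152 CPM at PND0 and at 159 and 334 CPM at PND2 (log2 fold change 1.13, adjusted p = 0.0725), and *Ccnb2* at 107.6 and 177 CPM and then at 133.3 and 275 CPM (0.76, adjusted p = 0.229). For *Ccnb2* the pools of the days overlapped. The kinase *Aurka* and the mitotic exit factor *Cdc20* had log2 fold changes of 1.15 and 0.40 and did not pass either (adjusted p = 0.0684 and 0.535). *Cdc25b*, a phosphatase that activates CDK1, fell, from 57.3 and 72.6 CPM to 15.8 and 23.4 CPM (-1.50, adjusted p = 0.0157), and it was the only mitotic regulator of 17 that did. This fall did not pass without PND2 replicate 1 (adjusted p = 0.0869) or without PND0 replicate 2 (0.0601). Among those 17 cyclins, kinases and regulators, 8 rose.

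The numbers of called genes depended on single pools. Without PND0 replicate 2, 12 of the G1/S and 10 of the G2/M genes passed. Without PND2 replicate 1, it was 32 of each, and without PND2 replicate 2, 20 and 9. Among cells with under 20 CPM of both *Sox9* and *Nr2f2*, a limit chosen after the somatic sums were seen, 25 and 15 passed. None of these fits called a G1/S or G2/M gene named above in the opposite direction. *Top2a*, which unlinks replicated DNA, was at 97.4 and 93.8 CPM and then at 167 and 297 CPM (log2 fold change 1.52, adjusted p = 0.0154) but did not pass without PND0 replicate 2 (0.102) or without PND2 replicate 2 (0.0995).

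**Figure D1:**
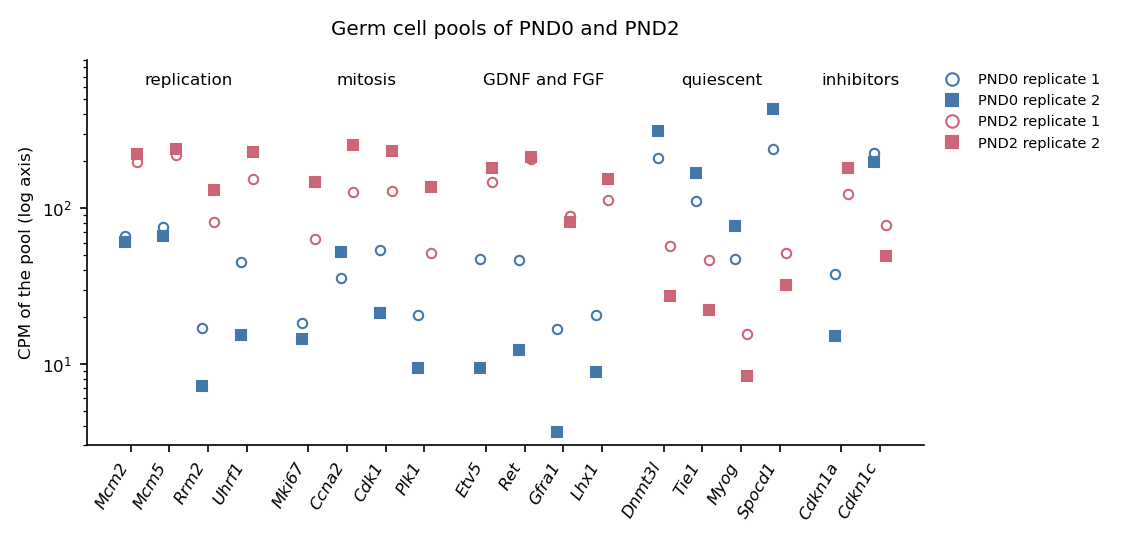
Level of 18 genes in the 4 germ cell pools, in CPM on a log axis, grouped by role, with circles for replicate 1 and squares for replicate 2. Replication, mitosis and GDNF genes lie higher in both PND2 pools, quiescent genes and *Cdkn1c* lower, and *Cdk1* ranges from 21.2 CPM in PND0 replicate 2 to 234 CPM in PND2 replicate 2.

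Sequence in front of these genes is shown because the G1/S and G2/M groups differ in the letters found there. The windows run from 250 bases before to 50 bases after each RefSeq start on GRCm38.p6, and 27025 genes of the mouse had one. E2F factors are known to bind TTTCGCGC, TTTGGCGC, TTTCCCGC or TTTGCCGC, and the MuvB complex of late cell-cycle genes binds the cell-cycle homology region (CHR), TTTGAA, often beside CCAAT boxes of the factor NF-Y. Parts of 5 windows follow, 5′ to 3′ on the gene's own strand, with matches to any of these motifs on either strand in capitals, overlapping matches run together. They lie at chr8:75109339-75109508 (plus strand) for *Mcm5*, chr1:128359706-128359825 (minus) for *Mcm6*, chr7:135716440-135716569 (minus) for *Mki67*, chr10:69352913-69353052 (minus) for *Cdk1* and chr9:70421555-70421724 (minus) for *Ccnb2*. *Mcm5*, *Mki67* and *Cdk1* rose and *Mcm6* and *Ccnb2* did not pass the test.
Mcm5: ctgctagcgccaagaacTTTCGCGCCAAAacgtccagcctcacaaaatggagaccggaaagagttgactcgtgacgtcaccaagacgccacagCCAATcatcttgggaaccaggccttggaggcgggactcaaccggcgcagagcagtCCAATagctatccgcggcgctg
Mcm6: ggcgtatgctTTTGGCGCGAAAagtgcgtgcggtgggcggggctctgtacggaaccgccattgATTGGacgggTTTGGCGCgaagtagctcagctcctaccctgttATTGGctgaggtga
Mki67: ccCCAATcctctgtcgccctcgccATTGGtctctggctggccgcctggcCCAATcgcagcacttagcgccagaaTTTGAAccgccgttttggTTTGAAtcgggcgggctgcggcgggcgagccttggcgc
Cdk1: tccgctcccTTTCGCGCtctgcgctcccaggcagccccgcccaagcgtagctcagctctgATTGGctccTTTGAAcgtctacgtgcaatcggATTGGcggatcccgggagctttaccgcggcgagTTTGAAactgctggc
Ccnb2: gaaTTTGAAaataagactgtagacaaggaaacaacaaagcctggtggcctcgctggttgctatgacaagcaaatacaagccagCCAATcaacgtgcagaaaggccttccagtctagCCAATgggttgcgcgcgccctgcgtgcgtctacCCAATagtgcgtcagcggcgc

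*Mcm5* and *Mcm6* both hold E2F and CCAAT letters, *Mki67* and *Ccnb2* hold CHR and CCAAT letters, and *Cdk1* holds all 3 kinds. Of the 31 G1/S genes with a window, 12 held an E2F match (38.7%), 6 a CHR match (19.4%) and 22 a CCAAT match (70.97%). Of the 46 G2/M genes with a window, 3 held an E2F match (6.52%), 32 a CHR match (69.6%) and 34 a CCAAT match (73.9%). Among all 27025 windows the shares were 2.6%, 20.2% and 41.1%. Licensing and fork genes, 15 of which are also in the G1/S list, held an E2F match in 13 of 27 windows (48.1%). A match is a description of letters and does not show that a factor binds there.

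Such letters were also counted over all tested genes with a window, without regard to any list. Of 561 genes with an E2F match, 62 rose (11.1%) and 15 fell (2.67%), with a median log2 fold change of 0.29. Of 2638 genes with a CHR match, 161 rose (6.10%) and 226 fell (8.57%), with a median of -0.19. Over all 15855 genes with a window, 6.25% rose and 7.69% fell, with a median of -0.08. The share of rising genes with a CHR match thus lay near that of all genes.

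Inhibitors of cyclin-dependent kinases changed in opposite directions. *Cdkn1c*, which encodes p57, was at 227 and 199 CPM at PND0 and at 77.9 and 48.95 CPM at PND2. Both PND2 pools lay far below both PND0 pools, a 3.02-fold fall (log2 fold change -1.6, SE 0.29, adjusted p = 0.00409). *Cdkn2c*, p18, fell from 17.8 and 19.9 CPM to 6.84 and 3.32 CPM (-1.78, adjusted p = 0.0315), a call lost without PND0 replicate 1 (0.112), without PND0 replicate 2 (0.274) and without PND2 replicate 2 (0.0600). *Cdkn1a*, p21, a target of p53, rose 6.82-fold, from 37.9 and 15.1 CPM to 124.05 and 180 CPM (2.77, SE 0.42, adjusted p = 0.00139). *Cdkn1b*, p27, was at 40.9 and 25.6 CPM and then at 39.9 and 18.6 CPM (-0.05, adjusted p = 0.948), with overlapping pools. The remaining 4 of the 8 inhibitors, *Cdkn2a*, *Cdkn2b*, *Cdkn2d* and *Cdkn3*, had log2 fold changes between -0.52 and 0.46 and did not pass.

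Of the cyclins of G1, *Ccnd2*, cyclin D2, was at 242 and 142.5 CPM at PND0 and at 441 and 558 CPM at PND2 (log2 fold change 1.6, adjusted p = 0.0146). Without PND0 replicate 2 this call was lost (1.31, adjusted p = 0.494). *Ccne1*, cyclin E1, was at 25.97 and 20.4 CPM and then at 50.6 and 52.8 CPM (1.36, adjusted p = 0.0150), while *Ccne2* had overlapping pools (33.8 and 24.3 CPM, then 20.3 and 28.7 CPM, adjusted p = 0.984). *Cdc25a*, a phosphatase of S phase entry, was the other of 3 genes that rose among 9 G1/S cyclins and kinases.

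Genes of prospermatogonia were lower at PND2. Of 7 genes that the study names for prospermatogonia, 6 fell, with a median log2 fold change of -1.90 over all 7. They are called quiescent genes here, although the study ties only *Dnmt3l*, *Tspan8*, *Zxdc* and *Tie1* mainly to the quiescent state, gives *Myog* and *Mef2c* for prospermatogonia in general and finds *Krt18* in the transitional state too. Those genes were picked by the study from these cells, so that their direction is no independent evidence. *Dnmt3l*, a cofactor of de novo DNA methylation, was at 210 and 315 CPM at PND0 and at 57 and 27.1 CPM at PND2. It fell 5.77-fold, and both PND2 pools lay below both PND0 pools (log2 fold change -2.53, SE 0.36, adjusted p = 9.96e-04). *Tie1*, a receptor tyrosine kinase best known from endothelium, was at 111.3 and 169 CPM and then at 46.2 and 22.2 CPM (-1.92, adjusted p = 0.00360). The endothelial marker list as a whole had a median log2 fold change of -0.10. Its median log2 ratios to the PND0 mean, with 1 CPM added, were 0.64 and -0.83 in the PND2 pools. What endothelial RNA contributes to the *Tie1* levels was not tested. *Myog*, the muscle factor myogenin, was at 47.2 and 76.6 CPM and then at 15.6 and 8.42 CPM (-2.25, adjusted p = 0.00262).

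Lower levels were also found for *Zxdc*, a zinc finger gene, *Mef2c*, a partner of myogenic factors, and *Tspan8*, a tetraspanin, with log2 fold changes of -1.90, -1.50 and -1.36 and adjusted p of 0.00464, 0.0175 and 0.00847. The keratin *Krt18* was at 218 and 233 CPM at PND0 and at 179 and 122.7 CPM at PND2 and did not pass (-0.42, adjusted p = 0.362). In all 7 genes PND2 replicate 1 lay above replicate 2, at a median log2 ratio of replicate 2 to replicate 1 of -1.03. The order of the PND2 pools in quiescent genes was thus the reverse of that in G2/M genes. Whichever pool was left out, 5 or 6 of the 7 genes were called lower.

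The piRNA pathway, which silences transposons in arrested germ cells, fell only in a few members. Among 26 tested genes of the pathway and of de novo methylation, 4 fell, none rose, and the median log2 fold change was -0.09, close to that of all genes. *Spocd1*, which links nuclear piRNA to DNA methylation, was at 241 and 433 CPM at PND0 and at 51.2 and 32.1 CPM at PND2, a 7.36-fold fall (log2 fold change -2.88, SE 0.37, adjusted p = 7.14e-04). *Piwil4*, the nuclear Piwi protein, was at 93.2 and 211 CPM and then at 47.9 and 47.1 CPM (-1.50, adjusted p = 0.0180), and its partner in the nucleus, the helicase *Tdrd9*, at 166 and 189 CPM and then at 85.8 and 57.6 CPM (-1.15, adjusted p = 0.0186). Both calls were lost without PND0 replicate 2 (adjusted p = 0.374 and 0.156), where 2 genes of the group remained called. *Dnmt3a*, the methyltransferase that DNMT3L assists, was at 410 and 472 CPM and then at 257 and 227 CPM and did not pass (-0.69, adjusted p = 0.171). Cytoplasmic piRNA factors had smaller differences that did not pass, with log2 fold changes of -0.52 for *Piwil2* and -0.39 for *Mael*.

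Maintenance methylation went the other way. *Dnmt1*, which copies methylation at replication, was at 130 and 90.6 CPM and then at 203 and 192 CPM (log2 fold change 1.04, adjusted p = 0.0354), and its recruiter *Uhrf1* rose as described. *Tet2*, which oxidises methylated cytosine, fell from 22.6 and 17.9 CPM to 4.28 and 5.73 CPM (-1.78, adjusted p = 0.0285), whereas *Tet1* and *Tet3* had log2 fold changes of -0.20 and -0.24 and did not pass.

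**Figure D2:**
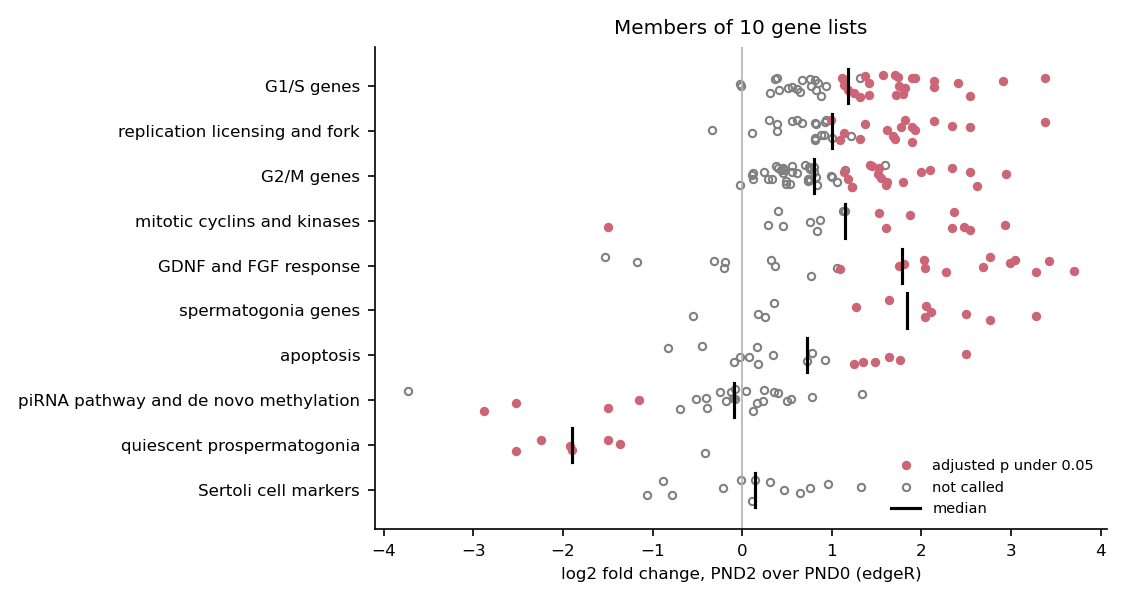
Log2 fold change of PND2 over PND0 for the members of 10 gene lists, 1 point per tested gene, filled where the edgeR test passed, with the median as a bar. The medians are 1.18 for G1/S genes, 0.80 for G2/M genes, 1.78 for the GDNF and FGF response, -1.90 for quiescent genes and 0.14 for Sertoli cell markers.

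Among 22 genes of the GDNF and FGF response, 13 rose, none fell, and the median log2 fold change was 1.78. The other 9 did not pass, and 5 of the 22 had log2 fold changes below 0. *Gfra1*, the co-receptor that binds GDNF, was at 16.8 and 3.66 CPM at PND0 and at 88.4 and 81.95 CPM at PND2. Its 9.69-fold rise (log2 fold change 3.28, SE 0.51, adjusted p = 0.00172) set both PND2 pools far above both PND0 pools, and the PND0 pools differed more in ratio than the PND2 pools did. *Ret*, the signalling receptor kinase, was at 46.8 and 12.3 CPM and then at 208 and 212 CPM, an 8.30-fold rise (3.05, SE 0.47, adjusted p = 0.00151). The FGF receptors did not pass: *Fgfr1* was at 34.1 and 30.9 CPM and then at 36.1 and 37.3 CPM (0.37, adjusted p = 0.463), and *Fgfr2* and *Fgfr3* stayed under 8 CPM in every pool, with log2 fold changes of 0.32 and 0.77 (adjusted p = 0.789 and 0.462). An exon of the antisense gene Gm16277 overlaps *Gfra1*, and reads of the pair may not be separable.

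Transcription factors of the GDNF response were among the genes that rose. *Etv5*, needed for stem cell self-renewal, was at 47.4 and 9.35 CPM and then at 146.2 and 181 CPM (log2 fold change 2.77, SE 0.53, adjusted p = 0.00474). *Lhx1*, another GDNF-induced factor, was at 20.7 and 8.82 CPM and then at 113.4 and 153 CPM (3.42, SE 0.41, adjusted p = 5.88e-04). *Etv4*, a relative of *Etv5*, rose with a log2 fold change of 2.99 (adjusted p = 0.00277), *Id4*, an inhibitor of helix-loop-helix factors that marks stem cells, with 2.04 (0.00360), and *Egr2* and *Egr1*, immediate early factors, with 2.69 and 1.81 (0.00403 and 0.00559). In all of these 6 genes PND0 replicate 1 lay above PND0 replicate 2, and over the 22 genes the median log2 ratio of PND0 replicate 2 to replicate 1 was -1.14, against -0.07 over all genes.

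Of 5 feedback inhibitors of these pathways in the list, 2 rose. *Spry4*, a Sprouty protein, was at 5.82 and 1.42 CPM and then at 22.2 and 54.2 CPM (log2 fold change 3.70, SE 0.63, adjusted p = 0.00275). *Dusp6*, the phosphatase of ERK, was at 54.5 and 11.1 CPM and then at 119.02 and 147.2 CPM (2.27, adjusted p = 0.0115). *Spry1* was at 22.1 and 22.3 CPM and then at 32.2 and 46.6 CPM (1.06, adjusted p = 0.0637), and *Dusp4* at 15.1 and 4.77 CPM and then at 5.77 and 7.60 CPM (-0.32, adjusted p = 0.773), and both missed the threshold. *Spry2* was at 21.8 and 15.7 CPM and then at 4.53 and 9.13 CPM, and *Etv1*, the remaining member of the *Etv4* and *Etv5* subfamily, at 17.2 and 16.3 CPM and then at 8.24 and 2.73 CPM. *Spry2* and *Etv1* did not pass either (-1.18, adjusted p = 0.135, and -1.53, adjusted p = 0.0735). The number of genes called in this group was 12 or 13 whichever pool was left out.

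Of 12 genes that the study names for spermatogonia or, in the case of *Id4* and *Pecam1*, for transitional prospermatogonia, 8 rose and none fell, with a median log2 fold change of 1.84, and these too are named from cells of this series. *Gfra1*, *Etv5* and *Id4* are among these 8 and were already counted in the GDNF and FGF group. *Nanos3*, an RNA-binding protein that preserves germ cells, was at 15.5 and 11.3 CPM at PND0 and at 71.1 and 62.1 CPM at PND2 (log2 fold change 2.5, SE 0.33, adjusted p = 8.09e-04). *Zbtb16*, the stem cell factor PLZF, was at 24.3 and 7.21 CPM and then at 53.5 and 58.2 CPM (2.05, adjusted p = 0.0101). *Tmc6*, a transmembrane channel-like gene, and *Hhex*, a homeobox gene, had log2 fold changes of 2.11 and 1.64 (adjusted p = 0.00502 and 0.00840), and *Hhex* did not pass without PND2 replicate 2 (0.0731). *Nefm*, *Tagln2*, *Pecam1* and *Upp1* did not pass, with log2 fold changes between -0.55 and 0.35.

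A longer list of 25 tested regulators of undifferentiated spermatogonia was more mixed, with 8 genes higher, 1 lower and a median log2 fold change of 0.61. Of these 8, *Nanos3*, *Zbtb16*, *Hhex* and *Lin28a* were already counted among the genes that the study names for spermatogonia. *Foxc2*, a forkhead gene of quiescent stem cells, was at 13.7 and 1.58 CPM and then at 49.7 and 46.2 CPM (log2 fold change 2.87, adjusted p = 0.0113). *Nanos2*, which maintains stem cells downstream of GDNF, stayed low at 3.20 and 1.32 CPM and then 5.44 and 4.58 CPM and did not pass (1.34, adjusted p = 0.309). *Cd9*, a surface tetraspanin, went from 178 and 188 CPM to 350 and 475 CPM (1.39, adjusted p = 0.0206). The gene that fell, *Pdx1*, was at 1.97 and 1.36 CPM and at 0 in both PND2 pools.

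Genes of differentiation did not move as a group: 3 of 18 rose, 1 fell, and the median log2 fold change was -0.37. *Kit*, the receptor of differentiating spermatogonia, was at 26.1 and 24.03 CPM at PND0 and at 20.3 and 22.9 CPM at PND2 (log2 fold change -0.01, SE 0.36, adjusted p = 0.993). *Stra8*, induced by retinoic acid, was at 58.4 and 11.8 CPM and then at 95.5 and 103.3 CPM (1.74, adjusted p = 0.0336), a call lost without PND0 replicate 2 (1.02, adjusted p = 0.181). *Cyp26a1*, which degrades retinoic acid, rose from 5.96 and 4.04 CPM to 15.2 and 19.7 CPM (2.03, adjusted p = 0.0185). *Rec8*, the meiotic cohesin subunit, fell from 64.9 and 62.5 CPM to 22.3 and 9.64 CPM (-1.88, adjusted p = 0.00477). No pool of PND2 reached a pool of PND0 for *Rec8*.

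Among 22 genes of adhesion and migration, 4 rose and 1 fell, with a median log2 fold change of 0.32. *Mmp9*, a protease of basement membranes, was at 36.5 and 16.6 CPM and then at 182 and 204 CPM (log2 fold change 3.08, SE 0.37, adjusted p = 6.02e-04). *Timp1*, an inhibitor of such proteases, was at 27.8 and 4.16 CPM and then at 77.02 and 138.5 CPM (3.03, SE 0.62, adjusted p = 0.00677). Protease and inhibitor thus both rose. *Epcam* and *Cdh1*, adhesion molecules of epithelia and germ cells, had log2 fold changes of 1.08 and 1.68 (adjusted p = 0.0326 and 0.0336), and *Jam2*, a junctional adhesion molecule, fell with -1.88 (adjusted p = 0.0383).

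Apoptosis genes included 6 of 17 that rose and none that fell, with a median log2 fold change of 0.72. *Bik*, a killer protein with only a BH3 domain, was at 25.4 and 11.4 CPM at PND0 and at 95.5 and 84.7 CPM at PND2 (log2 fold change 2.5, SE 0.37, adjusted p = 0.00127). *Trp53*, p53, was at 55.9 and 22.4 CPM and then at 96.9 and 127.4 CPM (1.76, adjusted p = 0.0110), and its target *Pmaip1*, Noxa, at 66.4 and 13.5 CPM and then at 123.2 and 93.7 CPM (1.64, adjusted p = 0.0383). *Mcl1*, which opposes these proteins, rose as well (1.25, adjusted p = 0.0138). *Mdm2*, also a target of p53 and its inhibitor, was at 220 and 217 CPM and then at 200 and 165 CPM, with no called change (-0.09, adjusted p = 0.874).

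Other gene groups moved in single members. Of 17 glycolysis genes 3 rose, among them *Hk2*, hexokinase 2, from 78.2 and 33.1 CPM to 184 and 198 CPM (log2 fold change 2.00, adjusted p = 0.00419), and the median was 0.06. Of 22 genes of the Myc family and ribosome production 3 rose, *Max*, *Dkc1* and *Nop58*, with a median of 0.26, and *Mycn* was at 43.1 and 10.4 CPM and then at 62.3 and 61.1 CPM without passing (1.43, adjusted p = 0.0550). Of 20 genes of Notch, Nodal and Wnt signalling, *Fzd7* and *Notch2* rose and *Notch3* and *Axin2* fell, with a median of 0.01. Of 14 pluripotency genes, *Tcl1*, a cofactor of AKT, and *Lin28a*, a repressor of let-7, rose, and *Prdm14* and *Dppa3* of early germ cells fell. *Tcl1* was at 72.3 and 31.9 CPM and then at 213 and 310 CPM (2.57, adjusted p = 0.00180), and *Dppa3*, which encodes Stella, at 32.3 and 49.5 CPM and then at 5.52 and 5.58 CPM (-2.69, adjusted p = 0.00152). *Pou5f1* had overlapping pools (0.22, adjusted p = 0.698).

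The largest changes in the whole test were ranked among the 1219 called genes whose average log2 CPM reached 5 and whose PND0 and PND2 pools lay apart. The transcript Gm43409 led the rises, at 13.4 and 9.12 CPM and then at 177 and 269 CPM (log2 fold change 4.55, SE 0.39, adjusted p = 7.47e-05). It was followed by *Tnnt2*, a cardiac troponin, at 6.95 and 4.21 CPM and then at 59.8 and 62.5 CPM (3.66, adjusted p = 4.14e-04), and by *Hist1h4c*, a histone H4 gene with near-identical copies whose reads are uncertain (3.6, adjusted p = 9.96e-04). *Dlx3*, a homeobox gene, *Kcnj15*, a potassium channel overlapped by an exon of Gm49643 on the other strand, 2610524H06Rik and *Spc24* of the kinetochore had log2 fold changes of 3.48, 3.47, 3.21 and 3.10, and *Lhx1*, *Rrm2* and *Gfra1* completed the 10.

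The deepest fall was that of 1700092E19Rik, at 55.2 and 82.9 CPM at PND0 and at 1.57 and 1.32 CPM at PND2, a 42.3-fold difference (log2 fold change -5.40, SE 0.42, adjusted p = 4.06e-05). *Cartpt*, a neuropeptide precursor, was at 77.9 and 143.4 CPM and then at 3.62 and 6.99 CPM (-4.11, SE 0.46, adjusted p = 5.71e-04). *Itih2*, a hyaluronan-binding protein, *Rac3*, a small GTPase, *Dynlrb2*, a light chain of ciliary dynein, and *Cldn18*, a claudin, had log2 fold changes of -3.39, -3.35, -3.23 and -3.03. *Tekt1*, a tektin of the axoneme, was at 127.3 and 191 CPM and then at 17.96 and 17.3 CPM (-2.99, SE 0.34, adjusted p = 5.71e-04). AC168977.1, *Spocd1* and *Jakmip2* completed the list with -2.93, -2.88 and -2.77. For all 20 genes the pools of the days lay apart, as the choice requires.

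Single cells were then examined at a common depth of 50000 UMIs, which left 304 cells of PND0, 167 of them in replicate 2, and 26 and 170 cells of PND2. At this depth a UMI of *Mki67* was found in 26.6% (19.1 to 34.5) and 32.9% (25.9 to 40.6) of the PND0 cells, with exact 95% binomial intervals that cover counting error only. At PND2 the shares were 70.7% (48.2 to 85.7) and 85.9% (79.7 to 90.7). The intervals of the days did not overlap. The mean shares differed by 48.6 percentage points, and the exact two-sided permutation test over pools gave p = 0.33, the smallest that 2 against 2 pools allow. Without thinning the shares were 47.5% and 55.5% and then 100% and 93.9%.

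Shares of *Etv5*, *Dnmt3l* and *Mcm5* moved in the same direction as their levels, and a share near 100% at PND0 could rise little. *Etv5* was found in 60.03% and 25.6% of the PND0 cells and in 91.8% and 98.1% of the PND2 cells. *Dnmt3l* was found in 95.8% and 100% and then in 71.2% and 44.5%. *Mcm5* was already found in 82.2% and 85.9% of the cells at PND0 and was in 98.5% and 99.6% at PND2.

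The sum of the 53 G2/M genes in a cell separated the cells of PND2. At 50000 UMIs the median cell held 241 and 252 UMIs of these genes at PND0 and 266 and 428 UMIs at PND2, and the 43 G1/S genes summed to medians of 190 and 164 UMIs and then 288 and 357 UMIs. A limit was set after seeing the data at the 95th percentile of the PND0 cells, 305 UMIs for G2/M and 237 UMIs for G1/S. Above the G2/M limit were 5 and 11 cells of PND0 (3.65% and 6.59%) and 10 and 130 cells of PND2 (38.5% and 76.5%). The limit is a point on a continuous scale, with 24 and 38 PND0 cells and 5 and 8 PND2 cells within 10% of it. All 140 PND2 cells above the G2/M limit were also above the G1/S limit, and 8 and 13 cells of PND2 were above the G1/S limit alone. Cells below both limits remained, 8 of 26 and 27 of 170.

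**Figure D3:**
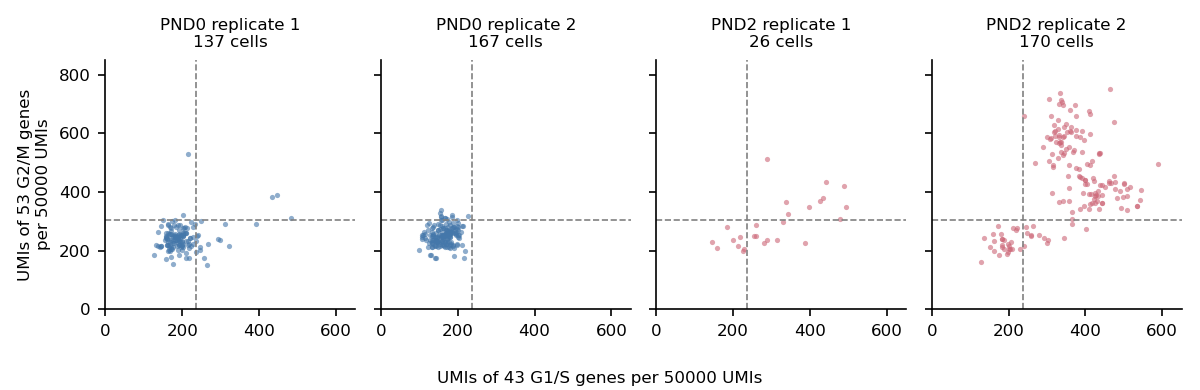
UMIs of 43 G1/S genes (horizontal) and 53 G2/M genes (vertical) in each germ cell thinned to 50000 UMIs, 1 panel per pool, with dashed lines at 237 and 305 UMIs. Most PND0 cells lie below both lines, 156 of 167 in replicate 2, and most cells of PND2 replicate 2 lie above both, with 27 of 170 still below both.

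Cells of PND2 at or below the G2/M limit were set beside PND0 cells at or below it, as a description, because the limit rests on the cells compared. In these low cells *Mki67*, which is part of the G2/M sum, was at 12.8 and 14.1 CPM at PND0 and at 31.2 and 17.9 CPM at PND2. Both PND2 values stayed above both PND0 values. *Mcm5* was at 68.9 and 66.2 CPM in low cells of PND0, at 168 and 131.8 CPM in low cells of PND2 and at 293 and 266 CPM in PND2 cells above the limit. *Rrm2* had the same order, with 10.8 and 7.48 CPM, 52.6 and 35.2 CPM and 122.99 and 153 CPM. Replication genes thus lay between in low PND2 cells. Of these low cells 8 and 13 were above the G1/S limit, and *Mcm5* and *Rrm2* belong to the G1/S genes. Values for cells below both limits are not given, so a mixture of cells cannot be told from a middle level in each cell. The same mix of cells underlies the low-cell values of the genes that follow.

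*Ret* and *Id4* of the GDNF response were nearly as high in low as in high PND2 cells. *Etv5* and *Lhx1* were lower in the low than in the high cells of PND2 replicate 2. PND2 replicate 1 held only 16 low and 10 high cells. *Ret* was at 40.7 and 12.4 CPM in low cells of PND0, at 189 and 194 CPM in low cells of PND2 and at 236 and 216 CPM in high cells of PND2. *Etv5* was at 43.6 and 9.42 CPM, 141.2 and 140.6 CPM, and 153 and 191 CPM, and *Id4* at 72.1 and 30.8 CPM, 178 and 167 CPM, and 201 and 182 CPM. The median low cell of PND2 held 84.5 and 73.5 UMIs of the 22 GDNF and FGF genes and the median high cell 88.5 and 88 UMIs, against 24 and 16 UMIs in low cells of PND0. *Lhx1* differed between the pools, at 116.4 and 58.96 CPM in low and 109.2 and 176 CPM in high cells.

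Quiescent genes were lower than at PND0 in low cells and lower still in high cells. *Dnmt3l* was at 215 and 313 CPM in low cells of PND0, at 60.02 and 78.4 CPM in low cells of PND2 and at 52.7 and 14.99 CPM in high cells of PND2. *Tie1* was at 116.1 and 170 CPM, 54.8 and 51.5 CPM, and 33.9 and 15.2 CPM, and *Cdkn1c* at 232 and 200 CPM, 90.2 and 109.4 CPM, and 60.3 and 34.6 CPM. The 7 quiescent genes summed to 46 and 57 UMIs in the median low cell of PND0, to 21 and 23 UMIs in low cells of PND2 and to 16 and 8 UMIs in high cells of PND2. Sertoli cell markers were at medians of 33 and 6.5 UMIs in low and 29 and 6 UMIs in high cells of PND2, so that they divided the pools and not the classes.

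**Figure D4:**
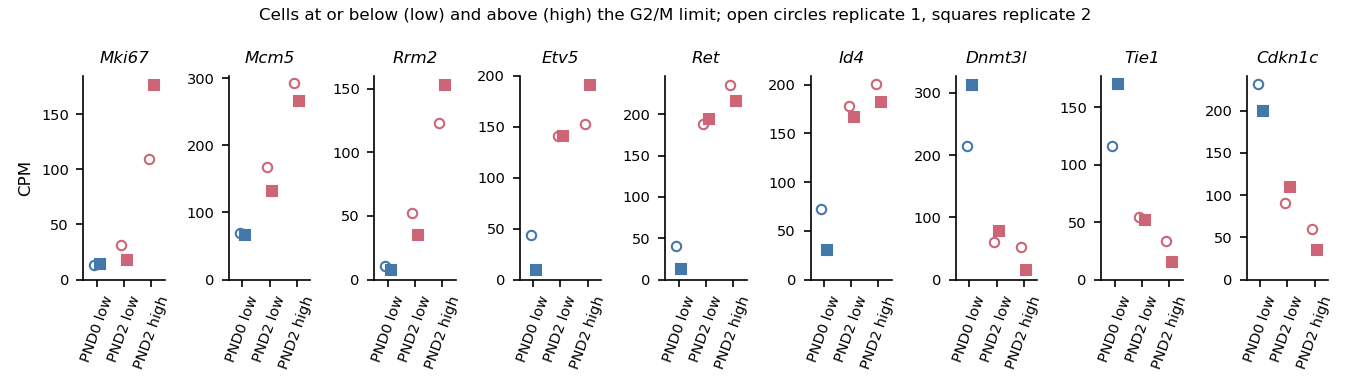
Levels of 9 genes in CPM summed over cells at or below (low) and above (high) the G2/M limit, with circles for replicate 1 and squares for replicate 2 of each day. *Ret* and *Id4* are close to their high-cell level already in low PND2 cells, and *Etv5* is further below it in replicate 2 than in replicate 1. *Mki67* is part of the G2/M sum that splits the cells, so its gap between the classes is built in. *Dnmt3l*, *Tie1* and *Cdkn1c* are lower in both classes of PND2 than at PND0.

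The few PND0 cells above the G2/M limit differed between the replicates. The 5 cells of replicate 1 held *Mki67* at 121.03 CPM, *Etv5* at 119.8 CPM, *Ret* at 161 CPM and *Dnmt3l* at 104.4 CPM. The 11 cells of replicate 2 held *Mki67* at 19.3 CPM, *Etv5* at 8.81 CPM and *Dnmt3l* at 337 CPM, levels close to those of the cells below the limit. A further 13 cells of PND0 replicate 1, and none of replicate 2, were above the G1/S limit alone.

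Other days gave the course around this interval. On a scale of the median log2 ratio to the mean of PND0, with 1 CPM added, the G1/S genes were at -0.08 and -0.21 at E18.5, before birth, at 0.79 and 0.25 at PND1, at 0.90 and 0.97 at PND2 and at 1.13 and 1.19 at PND3. The G2/M genes were at 0.09 and -0.05 at E18.5, at 0.15 and 0.09 at PND1, at 0.33 and 0.80 at PND2 and at 1.40 and 0.96 at PND3. GDNF and FGF genes were at 1.33 and 0.50 already at PND1 and at 1.53 and 1.53 at PND2. Quiescent genes were at -1.99 and -0.39 at PND1, at -1.53 and -2.61 at PND2 and at -3.89 and -2.89 at PND3. In G1/S, GDNF and quiescent genes the PND1 pools stood apart from each other, with replicate 1 further from PND0.

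The share of cells above the G2/M limit was 14.3% and 4.84% at E18.5, 30.7% and 5.65% at PND1 and 98.8% and 83.3% at PND3. *Mki67* was at 31.1 and 11.2 CPM at E18.5, at 44.8 and 23.2 CPM at PND1 and at 213 and 181 CPM at PND3. In both measures E18.5 replicate 1 lay above both PND0 pools. The 10 and 3 E18.5 cells above the G2/M limit were all at or below the G1/S limit, whereas the 10 and 130 such PND2 cells were above both limits. *Ret* was highest in the PND2 pools, at 208 and 212 CPM, with 133.2 and 51.01 CPM at PND1, 115.4 and 197 CPM at PND3 and 50.6 and 36.9 CPM at PND7. Its level in PND3 replicate 2 was close to those of the PND2 pools. *Cdkn1a*, which rose with them, was at 127.1 and 38.5 CPM at PND1, at 101.8 and 206 CPM at PND3 and at 45.8 and 42.6 CPM at PND7. These pools were read as a description and no test was run between them.

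**Figure D5:**
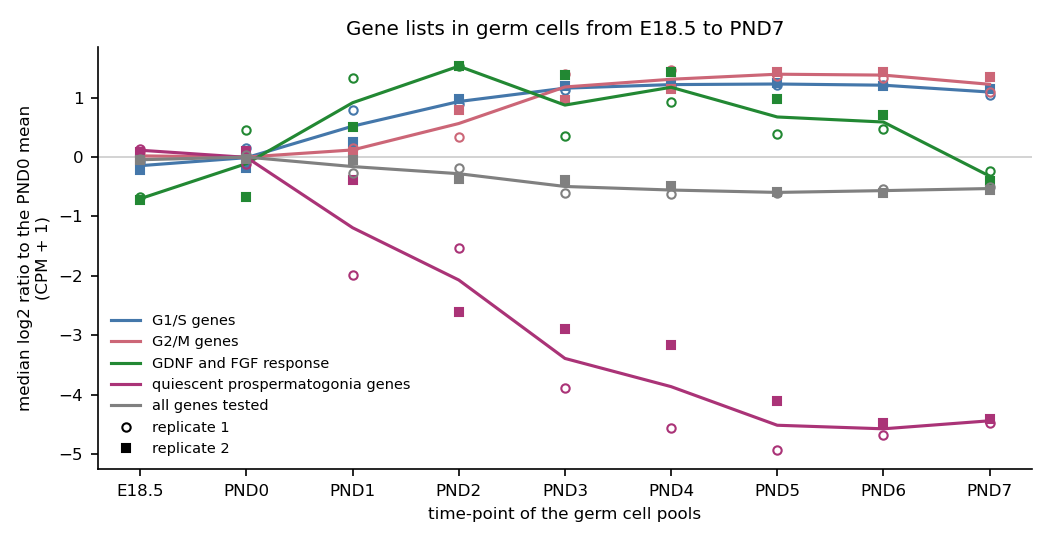
Median log2 ratio to the PND0 mean (CPM + 1) of 4 gene lists and of all tested genes in germ cell pools from E18.5 to PND7, with a point per replicate and lines through the means of the replicates. G1/S and GDNF genes are above 0 in both pools at PND1, G2/M genes reach 1.40 and 0.96 at PND3, and quiescent genes go down to -3.89 and -2.89 at PND3.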

How the data were processed

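The authors used UMI-tools for barcodes and UMIs, seqtk for trimming, STAR for mapping to mm10 and featureCounts for assignment to genes, and deposited UMI counts per gene and cell without normalization. How strand was treated in counting is not given in the sources used here, so a gene overlapped by exons of another gene may share its reads. Titles of the samples name libraries only, and day, genotype and replicate of each cell were taken from the deposited table of cells. Cells had been picked singly and no doublet caller was run.

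UMIs were summed per pool and tested with edgeR 4.0.16 (R 4.3.3, limma 3.58.1) by its quasi-likelihood test, two-sided, with TMM scaling, filterByExpr and Benjamini-Hochberg adjustment over all 22524 genes, at a false discovery rate of 0.05. The steps were tested on simulated data. Pools are the replicates, and cells were not used as such. *Ddx4*, *Sox9* and *Nr2f2* chose the cells and were not tested. Named genes are the markers, members of the lists, called members with the largest changes first, and the 10 largest rises and 10 largest falls as defined above. The members and lists were chosen with earlier results of these data known. Shares of cells with a UMI are the average over all ways of thinning a cell to 50000 UMIs, and sums over lists come from a single seeded draw. Sequences are from RefSeq for GRCm38.p6, the assembly behind mm10. Alternatives were DESeq2 1.42.0, its size factors, no filter, a fit of all pools from PND0 to PND7, other limits for *Ddx4*, *Sox9* and *Nr2f2*, thinned cells, a replicate block, and leaving out each pool. Some items are not reported here.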

Additional observations from a re-analysis of the deposited data

How the results depend on the processing

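Against 1345 genes higher and 1728 lower at PND2, all pools of PND0 to PND7 in 1 fit gave 2254 and 698, so that the share of calls that were higher moved from 43.8% to 76.4%, and 3 of the quiescent genes in place of 6 were called lower. The calls lost there were those of *Tie1*, *Tspan8* and *Mef2c* (adjusted p = 0.0662, 0.249 and 0.219). DESeq2 called 2631 genes lower, and limiting *Sox9* and *Nr2f2* to under 20 CPM, chosen after seeing the data, called 1032 lower and left 51.9% of calls higher. Leaving out 1 pool gave 471 to 2060 genes higher and 446 to 2912 lower, the fewest of both without PND0 replicate 2. The shares of calls that were higher were 65.8% without PND0 replicate 1, 51.4% without PND0 replicate 2 and 29.5% without PND2 replicate 2. Between 12 and 32 G1/S genes and between 9 and 32 G2/M genes were then called higher, and between 2 and 5 genes of the piRNA group lower. A day left with 1 pool was assumed to vary like the other. The balance of higher and lower calls over all genes thus turned over under 4 alternatives, and the cause was not tested. The called genes compared across the alternatives were members of the lists above and the 10 largest rises and 10 largest falls. None of them changed direction, but most lost their call in at least 1 of the 13 alternatives. Only 70 kept direction and call in all 13. Most losses came without PND0 replicate 2 (65) and without PND2 replicate 2 (38). Of the axoneme genes described below, only *Tekt1* and *Dynlrb2* were part of this comparison. Same-numbered pools did not deviate together (r = 0.0437 over 22524 genes), and the replicate block called 1540 genes higher and 1786 lower. A requirement of *Sox9* and *Nr2f2* at 0 was not run, since it left no cell in PND2 replicate 1. The 26 cells of that pool limit the precision of its shares.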

Other observations

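A group that no list held was seen among the largest falls. After *Tekt1* and *Dynlrb2* had been seen there, 72 genes of the axoneme, the microtubule core of motile cilia and flagella, were collected by name. Because the group was chosen after its values were seen, its counts are a description. Of the 72 genes 29 fell from PND0 to PND2 by edgeR's test, none rose, and the median log2 fold change was -1.29, while 7.67% of all genes fell and the median of all genes was -0.12. In 60 of them both PND2 pools lay below both PND0 pools, against 41.4% of all genes.

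The group spans parts of the axoneme that are built by different complexes. *Dnah9*, an outer dynein arm heavy chain, was at 22.5 and 15.5 CPM at PND0 and at 2.14 and 2.35 CPM at PND2 (log2 fold change -2.86, SE 0.55, adjusted p = 0.00503). *Pifo*, a ciliary protein, was at 68.1 and 86.5 CPM and then at 14.7 and 7.03 CPM (-2.72, adjusted p = 8.57e-04), and *Nme8*, a thioredoxin of the dynein arms, went from 128.9 and 307 CPM to 38.6 and 25.1 CPM (-2.64, adjusted p = 0.00139). *Hydin* of the central pair and *Drc1* of the dynein regulatory complex had log2 fold changes of -2.08 and -2.25 (adjusted p = 0.00435 and 0.0101). No PND2 pool of these 5 genes reached a PND0 pool.

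*Foxj1* and *Mcidas*, which are known to switch on motile ciliogenesis, were near the bottom of the scale on both days. *Foxj1* was at 1.99 and 2.19 CPM at PND0 and at 2.88 and 1.66 CPM at PND2 (log2 fold change 0.26, adjusted p = 0.897), and *Mcidas* at 2.66 and 3.23 CPM and then at 3.38 and 0.819 CPM (-0.43, adjusted p = 0.817). Neither passed the test, and both had overlapping pools. In low cells of PND2 *Tekt1* was at 17.6 and 46.7 CPM, against 131.2 and 187 CPM in low cells of PND0 and 18.4 and 10.4 CPM in high cells of PND2. Over the days the group's median log2 ratio to the PND0 mean was -1.10 and -0.32 at PND1, -1.07 and -1.58 at PND2 and -2.10 and -1.74 at PND3, so that both PND1 pools lay below the PND0 mean, replicate 1 further than replicate 2.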
